A study of Mus musculus with 6 samples.

Results

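The genes described here are 7 targets that the progesterone receptor and the glucocorticoid receptor are both known to regulate: Fkbp5, Zbtb16, Tsc22d3, Per1, Sgk1, Mt1 and Mt2. They were listed by gene symbol, with earlier results of these data known, so their values are not those of an unselected list. All 7 were found once each among the 21936 genes of the deposited tables. RNA was measured in whole uteri of pregnant mice aged 6 to 8 weeks, killed on gestational day 4 after mating with fertile males, with the plug counted as day 1. The 6 libraries were labelled Mettl3 f/f (3 libraries) and Mettl3 d/d (3 libraries), where Mettl3 encodes the enzyme that writes N6-methyladenosine on RNA. By common notation f/f is a floxed allele and d/d its deleted form. Strain, Cre driver and deleted exons are not given in the labels, nor is it stated that each library came from a separate animal, so the p-values below refer to variation among these libraries, which may be technical. Mettl3 stood at 26.3 to 30.3 FPKM (sequenced fragments scaled by gene length and library size) in f/f and at 30.1 to 46.5 FPKM in d/d libraries. A value over the whole gene does not check a deletion of part of it, so "d/d" below means the libraries labelled d/d.

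Progesterone and glucocorticoids act through closely related nuclear receptors that bind the same DNA element, a palindrome of 2 hexamers, and therefore share target genes. Before implantation the uterus is under rising progesterone from the ovary, and its stroma and epithelium both carry the progesterone receptor. Among the shared targets, Fkbp5 encodes FKBP51, a co-chaperone that lowers the hormone affinity of the receptors and so forms a feedback loop. Zbtb16 encodes the zinc finger transcription repressor PLZF, and Tsc22d3 encodes GILZ, a leucine zipper protein that restrains inflammatory signalling. Per1 is a core gene of the circadian clock that hormones can also induce directly. Sgk1 encodes a kinase that controls epithelial ion transport and cell survival. Mt1 and Mt2 encode metallothioneins, small cysteine-rich proteins that bind zinc and copper and are induced by metals through the factor MTF1 as well as by hormones.

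RefSeq start-site windows of 300 bases (250 before and 50 after the start, GRCm38.p6) were found for 6 of the 7 members, 14 windows in all. The windows of Mt1 and Mt2 are shown because these neighbouring genes had the highest levels and were both lower in every d/d library. The window of Sgk1 is shown because it held the full receptor element and Sgk1 was the member whose genotypes overlapped. In the first 2, capitals mark the core of the metal response element (TGCACNC or TGCGCNC on either strand). In the third, capitals mark the full palindrome (AGAACA, 3 bases, TGTTCT), which holds the hexamer TGTTCT once on each strand.
Mt1, chr8:94178839-94179138, plus strand: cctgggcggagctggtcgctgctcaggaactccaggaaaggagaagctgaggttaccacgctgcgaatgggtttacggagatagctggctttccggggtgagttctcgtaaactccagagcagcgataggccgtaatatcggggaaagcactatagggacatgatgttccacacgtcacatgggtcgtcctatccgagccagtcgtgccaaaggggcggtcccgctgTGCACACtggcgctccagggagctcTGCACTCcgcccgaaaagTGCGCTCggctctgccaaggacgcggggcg
Mt2, chr8:94172368-94172667, plus strand: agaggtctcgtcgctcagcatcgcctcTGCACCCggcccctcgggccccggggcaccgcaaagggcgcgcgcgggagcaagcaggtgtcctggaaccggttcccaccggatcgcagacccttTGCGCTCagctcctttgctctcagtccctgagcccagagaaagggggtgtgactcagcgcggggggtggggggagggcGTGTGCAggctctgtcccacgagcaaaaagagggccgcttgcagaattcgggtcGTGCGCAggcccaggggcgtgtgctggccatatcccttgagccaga
Sgk1, chr10:21993640-21993939, plus strand: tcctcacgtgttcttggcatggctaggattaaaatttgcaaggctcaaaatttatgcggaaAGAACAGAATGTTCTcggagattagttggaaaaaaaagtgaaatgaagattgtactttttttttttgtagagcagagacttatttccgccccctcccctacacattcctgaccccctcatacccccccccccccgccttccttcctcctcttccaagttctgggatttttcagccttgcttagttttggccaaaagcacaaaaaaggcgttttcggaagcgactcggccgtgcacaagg

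The metal response core occurred 3 times in the Mt1 window, beginning 23 bases before the start and 3 and 21 bases after it, and 4 times in the Mt2 window, beginning 223, 128 and 50 bases before the start and 5 bases after it. Of 32851 windows of the same length, 25.7% held the core at least once, 1.97% at least 3 times and 0.517% at least 4 times. The Mt2 start in GENCODE lies 46 bases downstream of the RefSeq start used here, so positions in that window depend on the start chosen. Those in the Mt1 window likewise refer only to the RefSeq start used, while GENCODE lists 3 Mt1 transcripts. The full receptor palindrome was in 3 of the 32851 windows (0.00913%), and 1 of them was this Sgk1 window, 189 bases before 1 of the 6 Sgk1 starts. The hexamer TGTTCT, present in 19.0% of windows on either strand, was also in 2 other Sgk1 windows and in 1 of 3 Tsc22d3 windows. It was in no window of Fkbp5, Per1, Mt1 or Mt2, which says only that these letters are not in these 300 bases. The E-box CACGTG, bound by clock factors, was in 1 of 2 Per1 windows, in the Fkbp5 window and in the Sgk1 window shown, against 7.15% of windows. The cyclic AMP element TGACGTCA was in none of the 14 windows (1.79% of all windows).

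All 7 members had a lower mean in d/d than in f/f libraries, and 3 of them, Fkbp5, Zbtb16 and Mt1, fell past the threshold (limma, Benjamini-Hochberg adjusted p under 0.05 over all genes tested). None was called higher. Among the 12979 genes tested 7.30% were called in either direction, 3.81% lower and 3.49% higher. In 6 of the 7 members every d/d library lay below every f/f library, against 17.8% of all genes tested, and Sgk1 was the exception. Of the 12979 genes 2310 lay lower in this way, 8314 overlapped and the rest lay higher. The median difference of the members (log2(FPKM + 1) of d/d less that of f/f) was -1.41, beside 0.02 for all genes tested. In whole tissue, fewer cells of a type and less RNA per cell cannot be told apart.

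**Figure D1:**
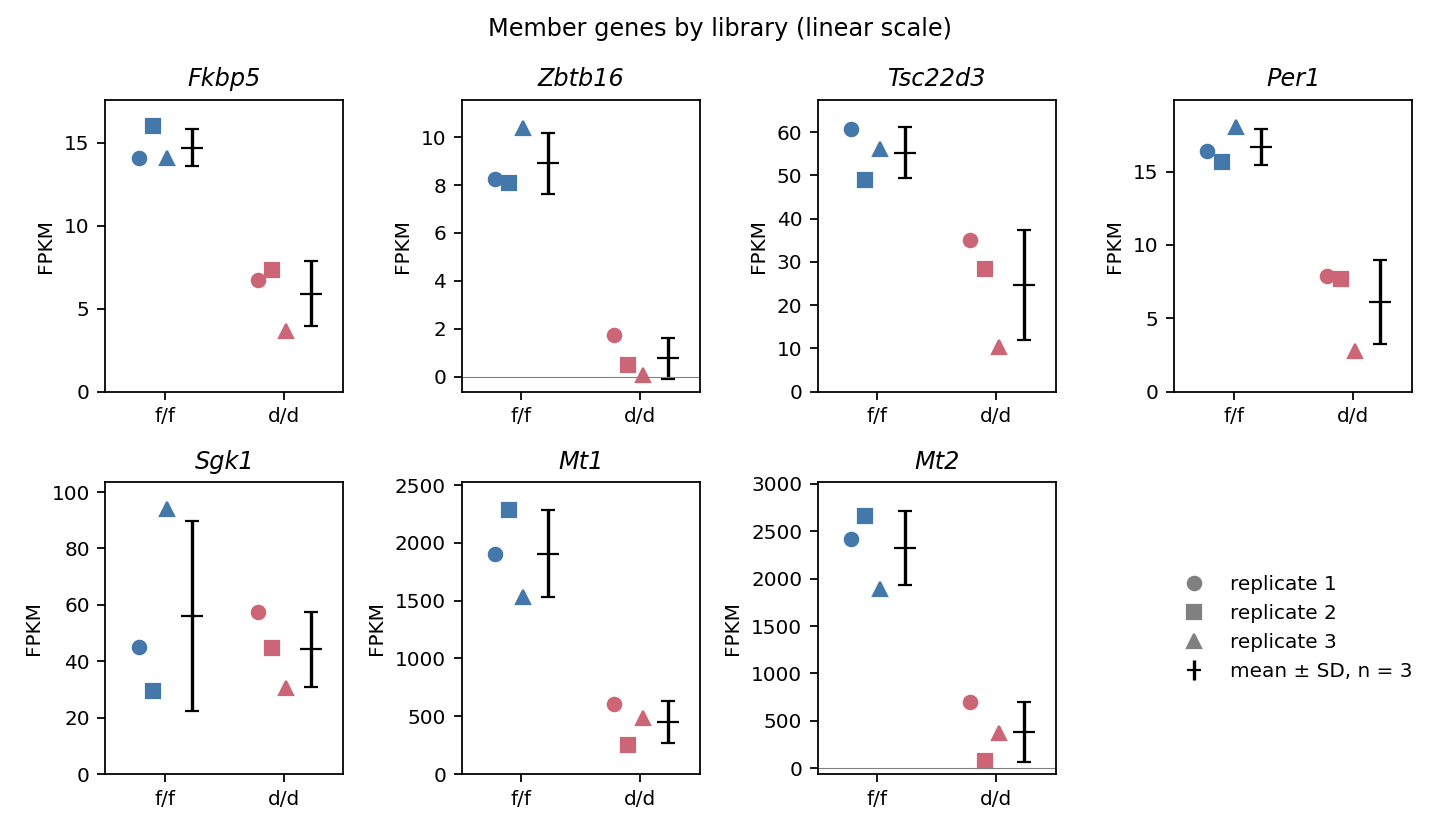
Level of each of the 7 genes in FPKM (vertical axis, linear) in the 3 f/f (blue) and 3 d/d (red) libraries. Symbols give the replicate number, and black bars the mean ± SD. Every d/d point lies below every f/f point except for Sgk1, whose highest f/f library is at 94.1 FPKM and lowest at 29.3.

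Fkbp5 (chromosome 17, 28399094 to 28517527, minus strand, protein coding, GRCm38) measured 14.1, 16.0 and 14.1 FPKM across the f/f replicates 1 to 3 and 6.75, 7.31 and 3.67 FPKM across the d/d replicates 1 to 3. The highest d/d library was at 52.0% of the lowest f/f library, and d/d replicate 3 was the lowest of all. Means were 14.7 ± 1.10 and 5.91 ± 1.96 FPKM (SD, n = 3 each), 2.49-fold lower, a log2 fold change of -1.23 (standard error, SE, 0.24, 95% interval -1.82 to -0.64, limma adjusted p = 0.0382). The exact two-sided permutation test over libraries gave p = 0.1, the smallest that 3 against 3 libraries allow. The call was lost without any one of the f/f libraries (log2 fold change -1.26, -1.17 and -1.26 without f/f replicates 1, 2 and 3, limma adjusted p = 0.154, 0.163 and 0.131), and with no filter on low values (adjusted p = 0.0601). Of all genes tested, 0, 30 and 111 were called without f/f replicates 1, 2 and 3, against 947 with all 6 libraries.

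Zbtb16 (chromosome 9, 48654297 to 48836222, minus strand, protein coding) was the lowest-expressed member and the one with the largest ratio between genotypes. The f/f replicates 1 to 3 measured 8.27, 8.10 and 10.4 FPKM. The d/d replicates 1 to 3 measured 1.74, 0.485 and 0.0741 FPKM, so these values ranged from 19.5% to 0.831% of the f/f mean. Means were 8.92 ± 1.27 and 0.766 ± 0.868 FPKM (SD, n = 3 each), 11.6-fold lower, which corresponds to -2.59 in log2 fold change (SE 0.35, 95% interval -3.45 to -1.74, limma adjusted p = 0.0184), with an exact permutation p of 0.1. Because the pseudocount of 1 is larger than most of the d/d values, this scale understates the difference, which was -3.97 with a pseudocount of 0.1. The genotypes did not overlap and were further apart than their spread, but among the d/d libraries the SD exceeded the mean. Without f/f replicates 1, 2 and 3 the log2 fold change was -2.64, -2.65 and -2.49 and the call was lost (limma adjusted p = 0.110, 0.104 and 0.0825).

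Tsc22d3 (chromosome X, 140539528 to 140600659, minus strand, protein coding) measured 60.7, 49.0 and 56.0 FPKM across the f/f replicates 1 to 3 and 35.2, 28.4 and 10.4 FPKM across the d/d replicates 1 to 3. The groups did not overlap, and the highest d/d library was at 71.8% of the lowest f/f library. Means were 55.2 ± 5.91 and 24.7 ± 12.8 FPKM (SD, n = 3 each), and the log2 fold change of -1.29 (SE 0.42, 95% interval -2.31 to -0.26) missed the threshold (limma adjusted p = 0.118, unadjusted p = 0.0218, exact permutation p = 0.1). The spread among the d/d libraries came mostly from replicate 3. Without it the log2 fold change was smaller, -0.78, and passed the threshold (adjusted p = 0.0457). Of the other TSC22 family genes, Tsc22d1 was at 277 ± 24.8 and 246 ± 50.1 FPKM (SD, n = 3 each, limma adjusted p = 0.565). None of the 12 listed partners of GILZ and FKBP51 passed the threshold in either direction, and their median difference was 0.23. These partners were 3 TSC22 family genes, the Akt kinases and their Phlpp phosphatases, and the NF-kB and AP-1 subunits.

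**Figure D2:**
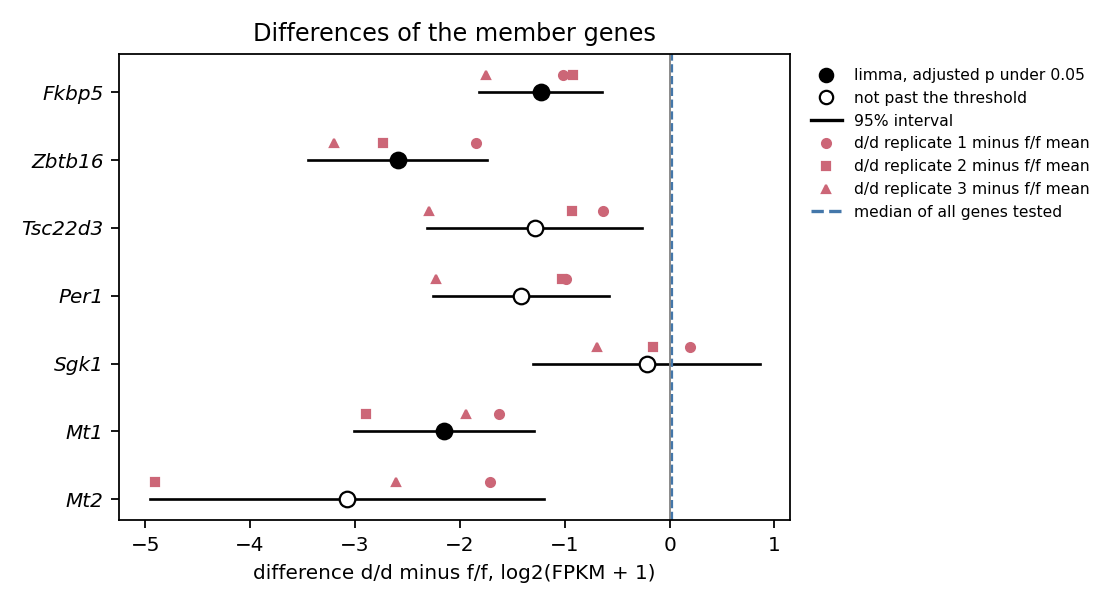
Difference between genotypes for each gene (horizontal axis, log2(FPKM + 1) of d/d less that of f/f) with its 95% limma interval, filled where the adjusted p was under 0.05. Small red symbols show each d/d library against the f/f mean, and the dashed line the median of all genes tested at 0.02. Replicate 3 is the lowest d/d library for Fkbp5, Zbtb16, Tsc22d3, Per1 and Sgk1, and replicate 2 for Mt1 and Mt2.

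Per1 (chromosome 11, 69095217 to 69109960, plus strand, protein coding) measured 16.4, 15.6 and 18.0 FPKM across the f/f replicates 1 to 3 and 7.88, 7.68 and 2.77 FPKM across the d/d replicates 1 to 3. The f/f libraries lay close together (SD 7.32% of the mean), and the highest d/d library was at 50.4% of the lowest f/f library. The log2 fold change of -1.41 (SE 0.35, 95% interval -2.25 to -0.58, means 16.7 ± 1.22 and 6.11 ± 2.89 FPKM, n = 3 each) did not pass (limma adjusted p = 0.0631, unadjusted p = 0.00583, exact permutation p = 0.1). Without d/d replicate 3 it was -1.01 and passed (adjusted p = 0.0220).

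Other clock genes lay in both directions. Of 17 tested clock and clock-output genes, 2 were called lower, 1 was called higher and 14 did not pass, and their median difference was -0.12. Per2, the paralog that works beside Per1 in the repressor complex, was at 3.40 to 3.78 FPKM in f/f and at 3.98 to 5.64 FPKM in d/d libraries, so every d/d value was the higher (log2 fold change 0.36, limma adjusted p = 0.229). Cry2, a partner of the PER proteins, fell (f/f and d/d means 8.62 ± 0.723 and 4.39 ± 0.829 FPKM, -0.85 in log2 fold change, limma adjusted p = 0.0388). Npas2, which can stand in for CLOCK, fell (f/f and d/d means 17.8 ± 3.73 and 7.05 ± 1.96 FPKM, -1.24 in log2 fold change, adjusted p = 0.0402). Bhlhe40, a repressor induced by many signals including progesterone, rose (f/f and d/d means 10.3 ± 0.448 and 83.3 ± 54.7 FPKM, 2.71 in log2 fold change, adjusted p = 0.0238). These 3 calls were lost without any one of the f/f libraries (adjusted p = 0.0919 to 0.170), and that of Cry2 also without d/d replicate 3 (0.0547) and at a mean of at least 5 FPKM (0.0530). With no filter on low values neither Cry2 nor Npas2 passed (0.0659 and 0.0625), and 0 clock genes were called lower. With the replicate number as a block 0 clock genes were called lower and 0 higher. Arntl, the BMAL1 gene that drives the positive limb, was at 9.19 ± 0.754 and 8.66 ± 1.25 FPKM, and the clock-controlled Nr1d1 and Dbp were at 10.7 ± 1.30 against 12.5 ± 4.46 and at 17.9 ± 3.56 against 18.7 ± 11.0 FPKM (adjusted p = 0.766, 0.727 and 0.887). The signs of these 3 differences changed when single libraries were left out. The hour of collection is not given in the labels, and its part in the values of the clock genes was not tested.

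Sgk1 (chromosome 10, 21882184 to 21999903, plus strand, protein coding) was the member that did not separate the genotypes. It measured 45.0, 29.3 and 94.1 FPKM across the f/f replicates 1 to 3 and 57.4, 44.6 and 30.5 FPKM across the d/d replicates 1 to 3, so all d/d values lay inside the f/f range. Its f/f libraries varied most of all members (SD 60.2% of the mean, against 7.32% to 19.6% for the other 6). The log2 fold change was -0.22 with a wide 95% interval of -1.30 to 0.86 (limma adjusted p = 0.789, n = 3 each, and an exact permutation p of 0.8), which holds no difference as well as a fall of the size seen for Fkbp5. Its sign changed on leaving out replicate 3 of f/f (0.23) or of d/d (0.02).

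None of 14 tested genes around the SGK1 kinase passed the threshold (median difference -0.21). In 7 of them every d/d library was below every f/f library, against 17.8% of all genes tested, and in 2 every one was above. Sgk3, the paralog, was at 18.5 ± 1.84 and 14.2 ± 3.32 FPKM. Nedd4l, the ubiquitin ligase that SGK1 inhibits, was at 37.6 ± 1.58 and 25.5 ± 3.79 FPKM (log2 fold change -0.55, limma adjusted p = 0.0666), and passed without d/d replicate 3 (-0.66, adjusted p = 0.0341), with quantile normalization (0.0403) and with array weights (0.0430). Scnn1a, a sodium channel subunit that Nedd4l removes from the membrane, measured 5.46, 6.12 and 7.50 FPKM across the f/f replicates 1 to 3 and 4.98, 4.40 and 0.813 FPKM across the d/d replicates (adjusted p = 0.269).

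The metallothionein genes had the highest levels of the members. Mt1 and Mt2 lie next to each other on the plus strand of chromosome 8 (94179082 to 94180327 and 94172664 to 94173568), 5513 bp apart, and are both protein coding. Mt1 measured 1907, 2282 and 1535 FPKM across the f/f replicates 1 to 3 and 610.0, 253 and 489 FPKM across the d/d replicates 1 to 3. It fell from a mean of 1908 ± 373 to 450.4 ± 182 FPKM (SD, n = 3 each), 4.24-fold, or in log2 fold change -2.15 (SE 0.36, 95% interval -3.01 to -1.30, limma adjusted p = 0.0262), with an exact permutation p of 0.1. The genotypes did not overlap, and the highest d/d library was at 39.7% of the lowest f/f library. Without f/f replicates 1, 2 and 3 the call was lost (log2 fold change -2.15, -2.02 and -2.30, limma adjusted p = 0.128, 0.128 and 0.0872).

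Mt2 measured 2414, 2662 and 1891 FPKM across the f/f replicates 1 to 3 and 701, 75.6 and 376 FPKM across the d/d replicates 1 to 3. Again no d/d library reached the f/f range, and the highest was at 37.0% of the lowest f/f library. The ratio of means was larger than for Mt1 (2323 ± 393 and 384 ± 313 FPKM, 6.05-fold), but the d/d libraries were further apart, and the log2 fold change of -3.08 (SE 0.78, 95% interval -4.96 to -1.20) did not pass (limma adjusted p = 0.0677, unadjusted p = 0.00671, exact permutation p = 0.1). Without d/d replicate 2, the lowest, it was -2.16 and passed (adjusted p = 0.0219), and without d/d replicate 1 it was -3.76 and passed (adjusted p = 0.0358). Together Mt1 and Mt2 made up 0.640% to 0.866% of all FPKM in f/f and 0.0525% to 0.236% in d/d libraries.

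The balance of the metallothionein pair also differed between libraries. Mt1 was lower than Mt2 in all 3 f/f libraries, at 0.790, 0.857 and 0.812 times its level, and in d/d replicate 1 (0.870 times). In d/d replicates 2 and 3 Mt1 was the higher, at 3.34 and 1.30 times Mt2. The log2 ratio averaged -0.29 ± 0.06 in f/f and 0.64 ± 1.00 in d/d libraries (SD, n = 3 each), a difference of 0.93 (exact two-sided permutation p = 0.1). A ratio within a library does not depend on how that library was scaled. The difference was 0.38 without d/d replicate 2, 1.35 without d/d replicate 1 and 1.06 without d/d replicate 3. The transcripts are 76.4% identical over 478 aligned bases but, read in the same orientation, shared no stretch of 50 bases with each other or with another gene. The opposite orientation was not compared. Mt2 exons overlap those of Gm45774 on the other strand by 432 bp, and no source used here states whether the authors counted by strand.

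**Figure D3:**
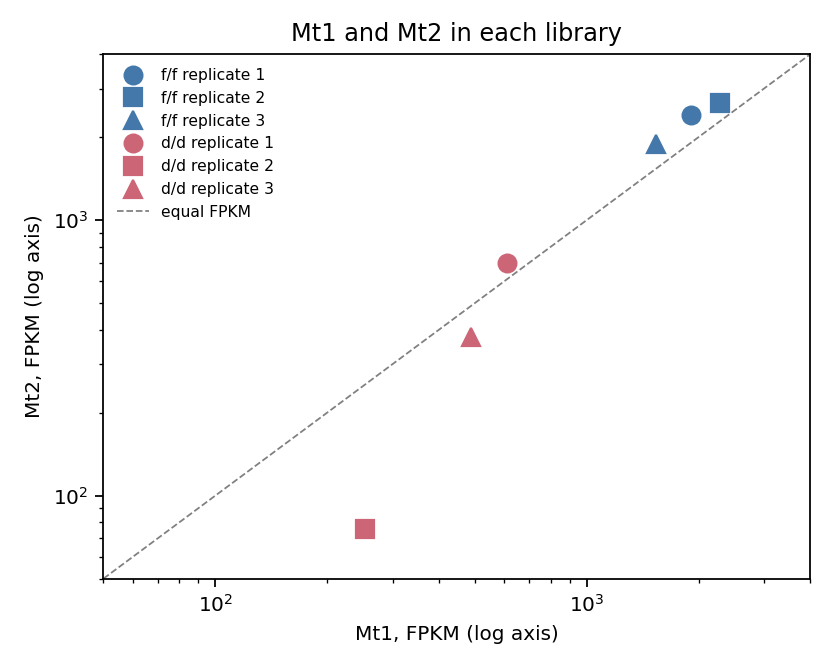
Mt1 (horizontal) against Mt2 (vertical) in each library, both in FPKM on log axes. The dashed line marks equal values. The f/f libraries and d/d replicate 1 lie above it, and d/d replicates 2 and 3 below it, with d/d replicate 2 at 253 FPKM for Mt1 and 75.6 FPKM for Mt2.

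None of the 12 tested genes of metal handling passed the threshold (median difference 0.17). Without overlap 3 were lower and 3 higher, where 17.8% of all genes tested were lower in this way. Mtf1, the zinc-sensing factor that binds metal response elements, was at 6.46 ± 0.190 and 5.91 ± 0.847 FPKM (log2 fold change -0.12, 95% interval -0.47 to 0.24, limma adjusted p = 0.653, n = 3 each). Slc30a1, the zinc exporter often used as an MTF1 readout, was listed at 0 in all 6 libraries, as was the squamous metallothionein gene Mt4. Since a 0 can be a failed estimate in these tables, nothing was read from it. The brain-enriched Mt3, named after its values were seen, measured 5.48, 6.10 and 6.52 FPKM across the f/f replicates 1 to 3 and 4.52, 2.10 and 0.199 FPKM across the d/d replicates (log2 fold change -1.36, adjusted p = 0.167).

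FPKM is scaled by gene length, so levels can also be set side by side between genes. In f/f libraries the order by mean was Mt2, Mt1, Sgk1, Tsc22d3, Per1, Fkbp5 and Zbtb16. The neighbours Mt2 and Mt1, Sgk1 and Tsc22d3, and Per1 and Fkbp5 overlapped in range, while Zbtb16 lay below all others. In d/d libraries Mt1 stood above Mt2 and the rest of the order was the same, with the same pairs overlapping.

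The genes of the progesterone and glucocorticoid receptors did not differ past the threshold. Pgr, the progesterone receptor gene, was at 23.1 to 23.9 FPKM in f/f and at 49.2, 17.3 and 33.2 FPKM in d/d replicates 1 to 3 (limma adjusted p = 0.553). Nr3c1, the glucocorticoid receptor gene, measured 10.8, 11.0 and 11.3 FPKM across the f/f replicates 1 to 3 and 10.8, 19.0 and 9.77 FPKM across the d/d replicates (log2 fold change 0.18, 95% interval -0.42 to 0.78, adjusted p = 0.680), and the difference was -0.09 without d/d replicate 2. Nr3c2, the mineralocorticoid receptor gene, was under 1 FPKM in all 6 libraries and was not tested. Of the 10 tested genes for receptors and hormone access, 1 was called lower and none higher, and the median difference was -0.12.

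The gene called lower was Hsd11b2, which encodes the enzyme that inactivates glucocorticoids inside cells. It measured 151, 139 and 160.2 FPKM across the f/f replicates 1 to 3 and 16.3, 4.13 and 40.1 FPKM across the d/d replicates 1 to 3, without overlap. It fell 7.44-fold by the means (150.0 ± 10.5 and 20.2 ± 18.3 FPKM, SD, n = 3 each), or in log2 fold change -3.29 (SE 0.70, limma adjusted p = 0.0452). The call was lost without any one of the f/f libraries (adjusted p = 0.151 to 0.164) and without d/d replicate 1 (0.0723), as well as with a pseudocount of 0.1 (0.0516) and with no filter on low values (0.0709). It was also lost with the replicate number as a block (limma adjusted p = 0.0784). Hsd11b1, whose enzyme regenerates active glucocorticoid, measured 2.44, 1.95 and 2.00 FPKM across the f/f replicates 1 to 3 and 5.26, 9.55 and 3.21 FPKM across the d/d replicates. Every d/d value was the higher, but the log2 fold change of 1.06 did not pass (adjusted p = 0.110); without d/d replicate 3 it was 1.38 and passed (adjusted p = 0.0448). Hormone levels were not measured in these data.

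Receptor chaperones showed no called change. None of 13 tested genes passed, and the median difference was 0.08. Fkbp4, which encodes FKBP52, the co-chaperone that opposes FKBP51 and is needed for uterine progesterone response, measured 162, 171 and 174 FPKM across the f/f replicates 1 to 3 and 253, 131 and 229 FPKM across the d/d replicates (log2 fold change 0.22, 95% interval -0.40 to 0.83, limma adjusted p = 0.626). The d/d libraries lay on both sides of the f/f range, whereas those of Fkbp5 all lay below it.

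Other genes known to be induced by glucocorticoids or progestins moved in both directions. Of 24 tested, 3 were called lower, 2 were called higher and 19 did not pass (median difference -0.47). In 10 every d/d library was below every f/f library, against 17.8% of all genes tested, and in 3 every one was above. Rgs2, a regulator of G protein signalling, fell (f/f and d/d means 228 ± 32.0 and 39.6 ± 10.03 FPKM, -2.51 in log2 fold change, SE 0.21, limma adjusted p = 0.00644). Hif3a fell (f/f and d/d means 1.94 ± 0.737 and 0.0939 ± 0.0226 FPKM, -1.39 in log2 fold change, adjusted p = 0.0287), and Cry2 was the third. All d/d values of Hif3a lie below the pseudocount of 1, so this scale understates its difference, which was 20.7-fold by the means and -3.33 with a pseudocount of 0.1. Nedd9, an adhesion scaffold gene, rose (f/f and d/d means 6.13 ± 0.939 and 28.2 ± 7.44 FPKM, 2.01 in log2 fold change, adjusted p = 0.0120), and the other called higher was Bcl6, named after its values were seen. The calls of Rgs2 and Hif3a were lost without f/f replicates 1 and 2 (adjusted p = 0.0578 and 0.0528, and 0.140 and 0.133), and that of Nedd9 without any one of the f/f libraries (0.0649 to 0.0833). With the replicate number as a block 1 of the 24 was called lower and 1 higher. Klf9, a Krüppel-like factor gene used as a readout of both receptors, measured 30.6, 31.3 and 30.9 FPKM across the f/f replicates 1 to 3 and 14.3, 18.2 and 7.23 FPKM across the d/d replicates. Its log2 fold change of -1.25 missed the threshold (adjusted p = 0.0645), and passed on leaving out replicate 2 of d/d (-1.51, adjusted p = 0.0309) or replicate 3 of d/d (-0.90, adjusted p = 0.0300), with quantile normalization (0.0459) and with array weights (0.0242). Dusp1, a rapidly induced phosphatase gene, was at 13.9 to 24.0 FPKM in f/f and at 13.9, 58.7 and 11.6 FPKM in d/d replicates 1 to 3 (adjusted p = 0.880).

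**Figure D4:**
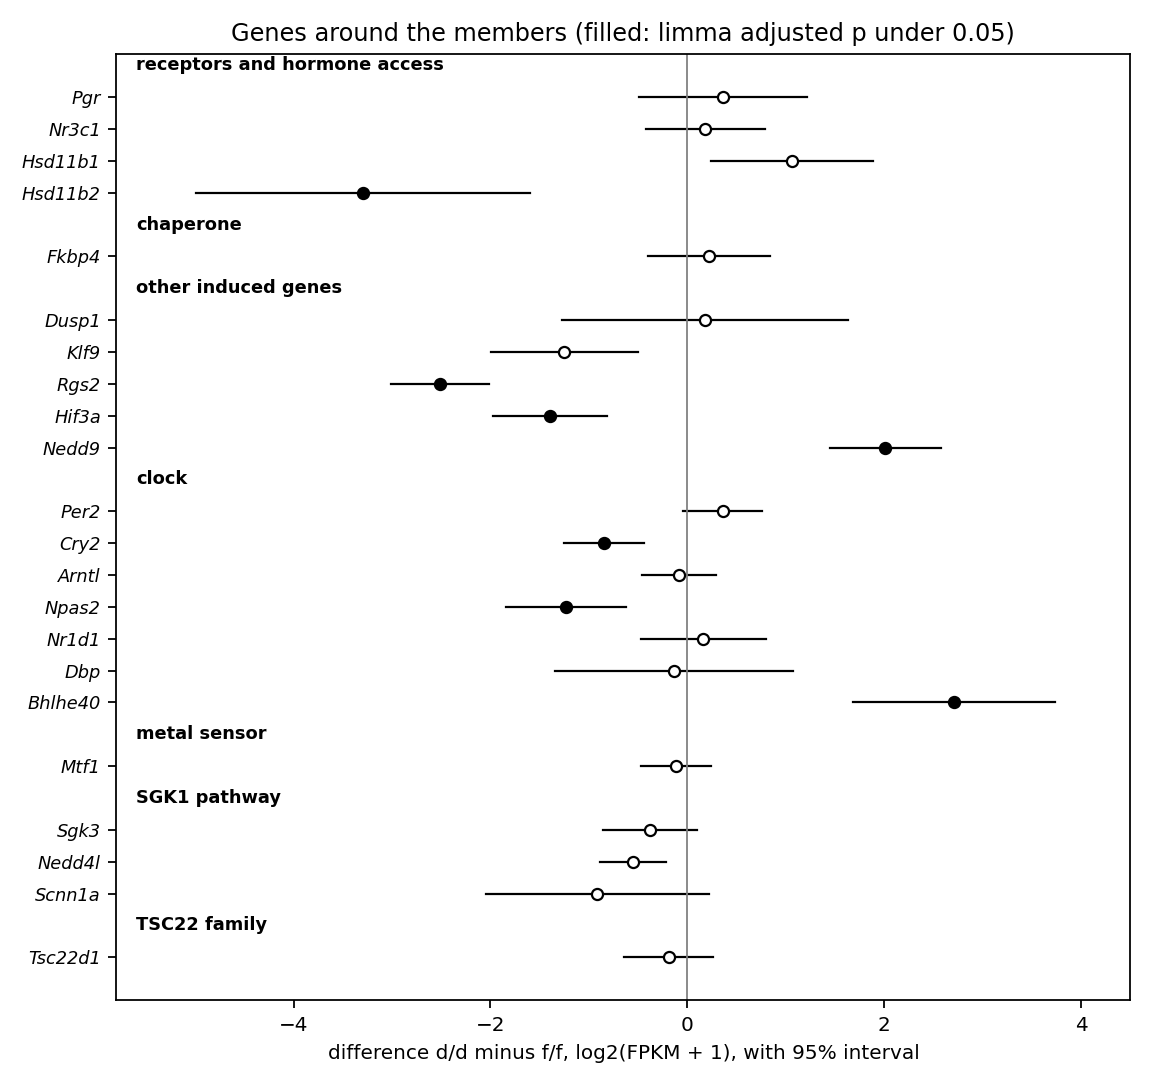
Difference between genotypes (horizontal axis, log2(FPKM + 1) of d/d less that of f/f, bars give the 95% limma interval) for genes around the members, by role. Filled points had an adjusted p under 0.05. On this scale, which understates low genes such as Hif3a, Hsd11b2 is at -3.29, Rgs2 at -2.51 and Bhlhe40 at 2.71.

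The members also differed in how they varied over the 6 libraries. On the log2(FPKM + 1) scale Fkbp5, Zbtb16, Tsc22d3 and Per1 correlated with one another at Pearson's r of 0.90 to 0.98, Mt1 with Mt2 at 0.98, and Sgk1 with the other 6 at 0.08 to 0.48. Between these 4 genes and the metallothioneins r ran from 0.63 (Tsc22d3 with Mt2) to 0.92 (Zbtb16 with Mt1), so the ranges overlap. These coefficients rest on 6 points that share the genotype difference, and are given as a description. Over all 12979 genes the profile most like that of Zbtb16 was that of Efemp1, a matrix glycoprotein gene (r over 6 libraries 0.999), with 135, 139 and 155 FPKM across the f/f and 36.0, 19.2 and 14.5 FPKM across the d/d replicates 1 to 3. The next were Zfyve16 and Tppp. Closest to Fkbp5 were Zfp438, Emb and Abl1, to Tsc22d3 Hdgfl2 and Eda2r, and to Per1 Cc2d2a, Zfp182 and Acbd4 (r of 0.994 to 0.999). A high r does not mean a difference of like size. Abl1 measured 27.4, 27.7 and 27.4 FPKM across the f/f replicates 1 to 3 and 25.8, 26.2 and 24.5 FPKM across the d/d replicates. Closest to Mt1 were Ccdc159, Ammecr1 and Rsph3a (0.994 to 0.996), to Mt2 Cstf3, Araf and Pllp (0.996 to 0.997), and to Sgk1 Snx29, Mbd5 and 2610021A01Rik (0.974 to 0.982). Pllp, a membrane protein gene, measured 133, 103 and 106 FPKM across the f/f replicates 1 to 3 and 25.1, 0.903 and 11.1 FPKM across the d/d replicates, with d/d replicate 2 the lowest as for Mt2.

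Markers of the cell types of the uterus differed between the d/d libraries, and their part in the results above was not tested. The f/f libraries were alike (Spearman correlation over genes 0.984 to 0.988), while the d/d libraries correlated at 0.951 to 0.965 with one another and at 0.945 to 0.968 with f/f. No marker in the 7 lists was at 0 in all 6 libraries, and the least expressed was the gland gene Prss28, above 0 in 1 library only. Summed epithelial markers were at 1804 to 1844 FPKM in f/f and at 3422, 1123 and 4560 FPKM in d/d replicates 1, 2 and 3, with 3 of 12 called higher. In 4 of the 12 every d/d library was above every f/f library, and in 1 every one was below. Stromal markers summed to 3150 to 3465 FPKM in f/f and to 1842, 4371 and 3374 FPKM in d/d libraries. Of 10 stromal markers 2 were called lower, Hoxa10 and Hoxa11, which are progesterone targets themselves. Vim and Pdgfra did not pass (limma adjusted p = 0.0647 and 0.114), but were also lower in every d/d library than in any f/f library. That made 4 of 10 lower without overlap and 0 higher, where 17.8% of all genes tested were lower in this way. Smooth muscle markers summed to 2494 to 5968 and 1122 to 4761 FPKM (1 of 8 called lower), and gland markers to 64.1 to 92.0 and 52.9 to 129 FPKM (1 of 6 tested called lower and 1 higher). Without overlap 1 smooth muscle marker was lower and 0 higher, and 1 gland marker was lower and 1 higher. Endothelial markers summed to 375 to 592 and 215 to 396 FPKM (1 of 8 called lower). Without overlap 6 of the 8 were lower and 0 higher, against 17.8% of all genes tested that were lower in this way. Macrophage and neutrophil markers summed to 249.99 to 374 FPKM in f/f and to 980, 5353 and 352 FPKM in d/d replicates 1, 2 and 3, with 1 of 9 tested called higher. Without overlap 4 of the 9 were higher and 0 lower. Lymphocyte and natural killer markers summed to 28.0 to 46.2 and 7.11 to 118 FPKM (1 of 7 tested called lower, median difference -0.96). The highest sum, in d/d replicate 2, held 65.5 FPKM of Ptprc, against 9.04 to 13.5 FPKM in f/f libraries. Without overlap 3 of the 7 were lower and 0 higher. These were Ncr1, Klrb1c and Prf1 (limma adjusted p = 0.0631, 0.0775 and 0.0289), while Gzma overlapped. Library d/d replicate 2, where Mt1 and Mt2 were lowest, had the lowest epithelial and the highest macrophage and neutrophil sums. Lyz2 alone was at 3738 FPKM there, while Ly6g was highest in d/d replicate 3 (25.0 against 5.80 FPKM in d/d replicate 2). Replicate 3, the lowest d/d library for Fkbp5, Zbtb16, Tsc22d3, Per1 and Sgk1, had the highest epithelial and the lowest endothelial sums. Without d/d replicate 2 the log2 fold changes of Mt1 and Mt2 were -1.78 and -2.16, and those of Fkbp5, Zbtb16, Tsc22d3 and Per1 were -1.38, -2.52, -1.46 and -1.61. The d/d replicates 1 and 3 that remain also departed from f/f, with epithelial medians of 1.11 and 1.40 and endothelial medians of -0.67 and -1.14. Without d/d replicate 3 the log2 fold changes of Mt1 and Mt2 were -2.26 and -3.31. Those of Fkbp5, Zbtb16, Tsc22d3 and Per1 were then -0.97, -2.29, -0.78 and -1.01.

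**Figure D5:**
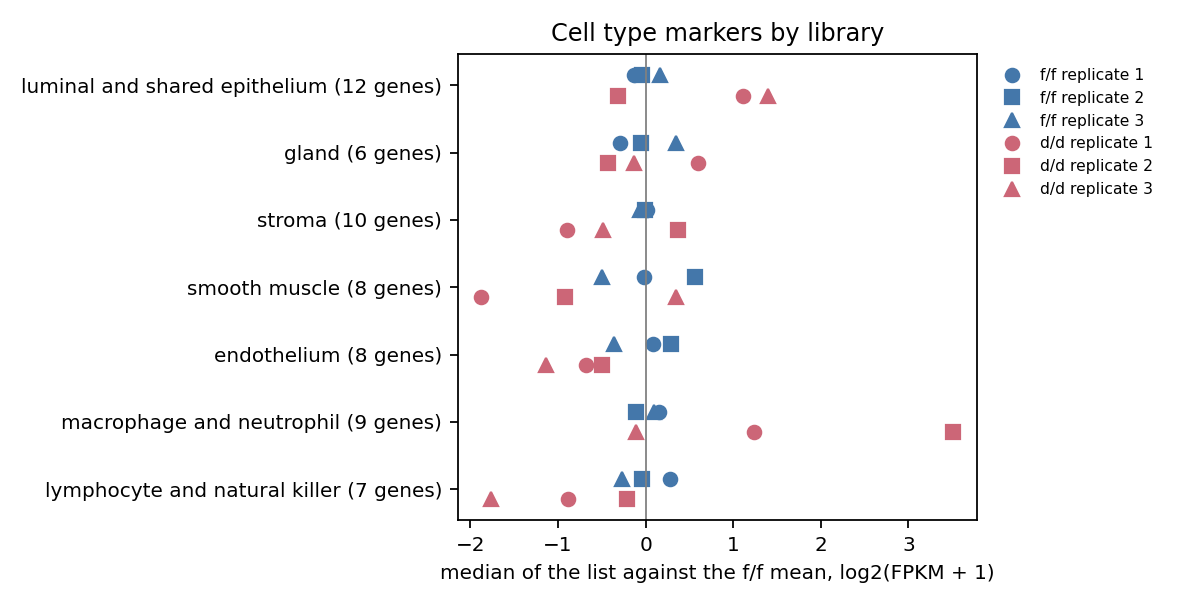
Median of each cell type marker list in each library against the f/f mean (horizontal axis, log2(FPKM + 1)), with f/f libraries in blue and d/d in red. The d/d endothelial medians of -0.67, -0.50 and -1.14 lie below those of every f/f library, while epithelial medians are 1.11 and 1.40 in d/d replicates 1 and 3 and -0.32 in d/d replicate 2, where the macrophage and neutrophil median is 3.51.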

How the data were processed

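RNA was extracted with TRIzol and sequenced from libraries of an Illumina TruSeq kit, per the labels' protocols. The authors deposited 1 table per library with a value for each of 21936 genes, taken here as FPKM. The unit was inferred from decimal values with differing totals (535043 to 625575) and from Cufflinks 2.2.1, which with HISAT2 2.2.1 and the builds mm9 and mm10 is named in the submitters' processing notes. Annotation, options and strand use: not given in the sources used here. No read numbers are given, so the absolute depth is unknown and no counting interval can be given. The most frequent ratio among values under 0.3 FPKM put relative depths at 0.937 to 1.01 times f/f replicate 1.

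Of rows sharing a symbol the highest was kept (36 removed), and genes at 1 FPKM or more in at least 3 of 6 libraries were tested (12979, all 7 members included). Log2(FPKM + 1) values were fitted with limma 3.58.1 in R 4.3.3 (genotype, intensity trend, two-sided, Benjamini-Hochberg over all genes tested, called under 0.05), and the code was tested on simulated data. Folds are ratios of mean FPKM. The median SD of a gene was 0.126 among f/f and 0.301 among d/d libraries. Coordinates are those of GENCODE M21 (GRCm38), matched by Ensembl ID, and promoters those of RefSeq (GRCm38.p6).

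The members and gene lists were chosen with earlier results of these data known, so no test of a list was made. Named were the 7 members, 20 genes listed for their role, up to 4 called genes per pathway list and the 3 genes most like each member. Slc30a1 and Nr3c2 among them could not be tested. Of the genes named by this rule, 2 are not reported here. Alternatives changed the pseudocount, filter, scaling, weights, trend, replicate block and libraries.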

Additional observations from a re-analysis of the deposited data

How the results depend on the processing

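The 6 members other than Sgk1 kept a negative difference under every alternative that gave a value; Zbtb16 has no value at a mean of at least 5 FPKM. The number of members called lower (3) was 5 with array weights and ranged from 0 to 5 with single libraries left out; none was called higher under any alternative. Calls over all genes (947, 494 lower and 453 higher) ranged with single libraries left out from 0 to 1367, 0 to 748 and 0 to 729. Lower calls were 321 at a mean of at least 5 FPKM, and higher calls 291 without a filter. Scaling to the same median gave 591 lower and 379 higher. Without a filter Fkbp5 was at -1.23 (adjusted p = 0.0601). Per1 passed with quantile normalization (-1.42) and array weights (-1.21), and Mt2 with array weights (-2.81). With array weights Sgk1 was at 0.13, Dbp at 0.15 and Dusp1 at -0.0017.

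With single libraries left out, log2 fold changes ranged from -1.38 to -0.97 for Fkbp5, -2.97 to -2.29 for Zbtb16, -1.61 to -0.78 for Tsc22d3, -1.63 to -1.01 for Per1, -0.60 to 0.23 for Sgk1, -2.42 to -1.78 for Mt1, -3.76 to -2.16 for Mt2, -0.094 to 0.35 for Nr3c1, -0.075 to 0.41 for Nr1d1, -0.52 to 0.45 for Dbp, -0.15 to 0.028 for Arntl and -0.53 to 0.59 for Dusp1. Without any one f/f library no member was called. Calls over all genes were then 0, 30 and 111 without f/f replicates 1, 2 and 3. Without d/d replicates 1, 2 and 3 they were 1319, 1367 and 1005. The cause was not tested.

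The labels repeat replicate numbers across genotypes but do not say that a number marks a shared animal or batch. Same-numbered libraries did not deviate together (correlations -0.02, 0.02 and -0.02 over genes). With the number as a replicate block 100 genes were called, 49 lower and 51 higher, and 0 members, with unchanged differences (Fkbp5 -1.23, Zbtb16 -2.59, Mt1 -2.15; adjusted p = 0.0817, 0.0631 and 0.0819).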

Other observations

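Outside the genes named by rule, several genes lay near the threshold and are given as values, having been picked after these were seen. The glutamine synthetase gene Glul, a classical glucocorticoid target, was at 343 ± 58.8 FPKM in f/f and 147 ± 46.0 in d/d libraries (SD, n = 3 each, limma adjusted p = 0.0501), and Klf15 was at 12.2 ± 1.03 and 3.74 ± 2.41 FPKM (adjusted p = 0.0577). The sulfotransferase gene Sult1a1 measured 39.1, 32.3 and 30.8 FPKM across the f/f and 12.4, 7.38 and 1.54 FPKM across the d/d replicates 1 to 3 (adjusted p = 0.0619). Among metal transporters, the zinc importer genes Slc39a4 and Slc39a14 were lower in every d/d library than in any f/f library (296 ± 98.9 against 142 ± 63.0, and 35.5 ± 1.68 against 15.7 ± 12.9 FPKM), and Slc39a8 was higher in every one (9.80 ± 1.91 against 25.7 ± 10.6; adjusted p = 0.116, 0.133 and 0.0612). The ferritin light chain gene Ftl1 was at 970 to 1028 FPKM in f/f and at 1563, 3047 and 1686 FPKM in d/d replicates 1 to 3 (adjusted p = 0.0855).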
